A study of Rattus norvegicus with 9 samples.

Results

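Lpl, Aqp7 and Acss1 are 3 genes of the fuel supply of the heart, which act on fatty acids taken from lipoproteins, on glycerol and on acetate. They were taken by name, without a threshold on any value but with earlier results of these data known, and are 3 of the 25075 annotated loci of at least 200 nt in the data, of which 14211 were expressed highly enough to be tested. All 3 were among those tested. RNA sequencing of whole ventricle was done in 9 libraries from Sprague-Dawley rats, 3 per group. The fetal libraries come from the ventricle of unoperated fetuses at embryonic day 18 and are labelled as litters. The TAC libraries come from the left ventricle of adults after transverse aortic constriction, in which the aorta is narrowed so that the heart pumps against a higher pressure. The sham libraries come from the left ventricle of adults that had the operation without the constriction. Trizol was the isolation reagent for the fetal samples, whereas a column kit was used for both adult groups, so developmental stage, region of the heart and isolation method cannot be told apart. The labels do not say whether each adult library is a separate animal, so the p-values measure the spread between these libraries, which may be technical.

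Lipoprotein lipase, the product of Lpl, is made in heart muscle and other tissues and moves to the inner surface of capillaries. There it splits the triglyceride carried by chylomicrons and very low density lipoproteins, and the fatty acids released enter the muscle cells, which burn them as their main fuel in the adult heart. Aquaporin 7, the product of Aqp7, is a membrane channel that passes water and glycerol, and it is best known from fat cells, where it releases glycerol; it has also been found in heart muscle. Acss1 encodes the acetyl-CoA synthetase of the mitochondrial matrix, which joins acetate to coenzyme A so that it can be oxidised. The fetal heart lives on glucose and lactate at low oxygen, and the machinery for burning fatty acids matures around and after birth.

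In the rat build rn4, the reference transcript of Lpl (ENSRNOT00000016543, 3608 nt) lies on chromosome 16 from 22532515 to 22556892. That of Aqp7 (ENSRNOT00000012975, 1267 nt) lies on chromosome 5 from 58433731 to 58447853, and that of Acss1 (ENSRNOT00000009627, 3595 nt) on chromosome 3 from 141259016 to 141308871. Each locus holds 1 reference transcript. The files name the locus Lpl in 6 of 9 libraries, Aqp7 in 2 and Acss1 in 1; elsewhere the same locus was found through its reference transcript. Levels are FPKM (fragments per kilobase per 1e6 fragments mapped) rescaled so that the libraries can be compared. They are per transcript length, so levels may also be compared between genes. The libraries held an estimated 24.82 to 35.39 (in units of 1e6) fragments in fetal ventricle, 9.068 to 17.39 in TAC and 17.15 to 30.82 in sham. The labels name no batch, but in replicate 1 of each group the shortest assembled feature was 43 nt against 63 nt in the others, so replicate 1 was treated as a batch inferred from the files, and values are also given within each replicate number.

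Lpl was a strongly expressed gene of the adult ventricle and a moderately expressed one of the fetal ventricle. Its level was 53.84, 57.33 and 59.63 rescaled FPKM in fetal replicates 1 to 3. In TAC it was 1132, 1521 and 1155, and in sham 1099, 1485 and 1241. The 3 fetal libraries lay close together and far below every adult library, while the TAC and sham values lay within the same range. Lpl ranked between 2119 and 2405 among all 25075 loci in a fetal library, where rank 1 is the highest level. It ranked between 74 and 98 in TAC and between 71 and 94 in sham. The fetal values rest on 2428 to 4165 fragments, as implied by the confidence bounds that the authors deposited, and the adult ones on 18395 to 57895. The deposited bounds of fetal replicate 2 (55.01 to 59.66) overlap those of replicate 1 (51.8 to 55.88) and of replicate 3 (57.78 to 61.48). Those of replicates 1 and 3 do not overlap, so these fetal libraries differ by more than their bounds for counting error.

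Aqp7 was near the floor of detection in fetal ventricle. Its level was 0.7358, 0.9586 and 0.9147 rescaled FPKM in fetal replicates 1 to 3, which rest on 14, 15 and 20 fragments. In TAC it was 174.4, 234.7 and 178.1, and in sham 201.2, 306.2 and 352.3. No fetal value reached 1, and the highest upper confidence bound of a fetal library was 1.454 against a lowest lower bound of 154.6 among the adult libraries. TAC and sham overlapped, since TAC replicate 2 lay above sham replicate 1. In the order of levels over the tested loci Aqp7 stood at percentile 8.5 to 8.7 in fetal ventricle, 94.4 to 95.6 in TAC and 95.4 to 97.4 in sham. Because Aqp7 passed the filter on low values through its adult libraries alone, it had to be higher in them.

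Acss1 was also only weakly detected in fetal ventricle. Its level was 1.124, 2.465 and 2.094 rescaled FPKM in fetal replicates 1 to 3, where the first value rests on 75 fragments of a single transcript. The reference transcript alone stood at 1.124, 1.188 and 1.16 in these libraries, and pieces assembled with it made up the rest. In TAC it was 229.3, 314.7 and 263.8, and in sham 298.9, 294.4 and 482.3. Sham replicate 3 was the highest library, and the other sham values lay within the range of TAC. The gene stood at percentile 10.8 to 16.4 in fetal ventricle, 95.8 to 96.8 in TAC and 96.6 to 98.3 in sham. In the adult ventricle Lpl was thus the highest of the 3 genes in each library, and Acss1 was above Aqp7 in 5 of 6 libraries, the exception being sham replicate 2.

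**Figure D1:**
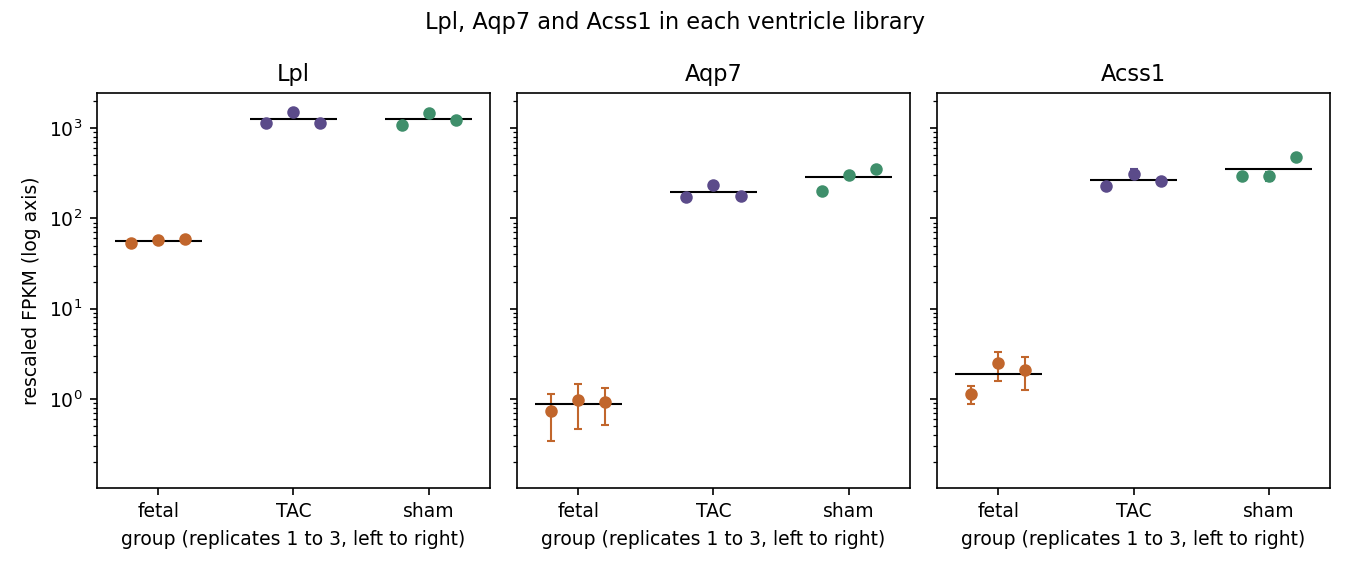
Level of Lpl, Aqp7 and Acss1 in rescaled FPKM (log axis) in each fetal, TAC and sham library; points are libraries, horizontal lines group means and vertical bars the confidence bounds deposited by the authors. The fetal libraries lie below every adult library for each gene, between 0.7358 and 0.9586 for Aqp7, while TAC and sham overlap.

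All 3 genes were lower in fetal than in sham ventricle, Aqp7 and Acss1 by far more than Lpl. Lpl averaged 56.94 ± 2.915 in fetal and 1275 ± 195.3 in sham ventricle (SD, n = 3 each), a 22.4-fold lower mean. Aqp7 averaged 0.8697 ± 0.118 in fetal and 286.6 ± 77.46 in sham ventricle, a 329-fold lower mean. Acss1 averaged 1.895 ± 0.6924 in fetal and 358.6 ± 107.2 in sham ventricle, a 189-fold lower mean. Tested with limma on the log2(rescaled FPKM + 1) scale over all 14211 loci, which understates the change of weakly expressed genes, Lpl fell by 4.45 (SE 0.17, Benjamini-Hochberg adjusted p = 1.2e-06). Aqp7 entered the test through its adult libraries alone, so its p-value is no evidence of the direction. It fell by 7.23 (SE 0.22, limma adjusted p = 5.76e-07) and Acss1 by 6.95 (SE 0.25, limma adjusted p = 1.08e-06). Differences this far below 0 were rare on this scale: 5 loci, Aqp7 included, fell at least as far as Aqp7, 8 at least as far as Acss1, and 72 at least as far as Lpl. The 1 added to each level limits how far a locus near 0 in fetal ventricle can fall, so these counts depend on it. Fmo2, for example, averaged 0.06608 in fetal and 21.63 in sham ventricle, yet its log2 change was -4.41, short of that of Lpl. Calls as such were common, since 45.4% of the tested loci were called in this comparison and 23.0% were lower in fetal ventricle.

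The same order held within each replicate number when assembled transcripts were counted. With reference transcripts only, the order of Aqp7 and Acss1 turned round, at -6.66 and -7.02 between fetal and sham ventricle. Lpl was 20.4-fold, 25.9-fold and 20.8-fold lower in fetal than in sham ventricle for numbers 1 to 3. Aqp7 was 273-fold, 319-fold and 385-fold lower, and Acss1 266-fold, 119-fold and 230-fold lower. With replicates 2 and 3 alone the log2 changes were -4.51 for Lpl (limma adjusted p = 0.000342), -7.41 for Aqp7 (limma adjusted p = 0.000105) and -6.85 for Acss1 (limma adjusted p = 0.00023). These are whole-tissue libraries, in which fewer cells of a type and less RNA per cell cannot be told apart.

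Fetal and TAC ventricle stood apart in the same way; the comparison shares its fetal libraries with the one above, so it is not separate evidence. The log2 change was -4.44 for Lpl, whose TAC mean was 1269 ± 218 (22.3-fold lower in fetal, limma adjusted p = 1.38e-06). It was -6.71 for Aqp7, whose TAC mean was 195.7 ± 33.79 (225-fold lower in fetal, limma adjusted p = 9.5e-07), and -6.56 for Acss1, whose TAC mean was 269.3 ± 42.97 (142-fold lower in fetal, limma adjusted p = 1.35e-06). The p-value of Aqp7 is no evidence of the direction here either. In this comparison 45.5% of the tested loci were called.

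Between TAC and sham no difference passed the threshold for any of the 3 genes. Only 2 of the 14211 loci did so by limma, 0.0141%, and neither is Lpl, Aqp7 or Acss1 (1 was higher and 1 lower, 0.00704% each); 612 loci had an unadjusted p below 0.05, 4.31% of those tested. For Lpl the log2 change was -0.01 (95% confidence interval -0.41 to 0.39, limma adjusted p = 1), which covers levels in TAC between 0.75 and 1.31 times those in sham on that scale. For Acss1 it was -0.38 (-0.97 to 0.20, limma adjusted p = 1), and the TAC mean was 75.1% of the sham mean. For Aqp7 it was -0.52 (-1.02 to -0.02, limma unadjusted p = 0.0423, adjusted p = 1), and the TAC mean was 68.3% of the sham mean. The interval for Aqp7 covers levels between 0.49 and 0.98 times those in sham.

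Within replicate numbers 1 to 3 the TAC library held 86.7%, 76.7% and 50.6% of the Aqp7 level of its sham counterpart, lower in 3 of 3. For Acss1 the values were 76.7%, 107% and 54.7%, lower in 2 of 3. For Lpl they were 103%, 102% and 93.1%. Sham replicate 3, which had the highest Aqp7 and Acss1 levels of all libraries, set the largest of these differences. Without it the log2 change between TAC and sham was -0.35 for Aqp7 and -0.15 for Acss1, the smallest over the 9 libraries left out in turn.

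**Figure D2:**
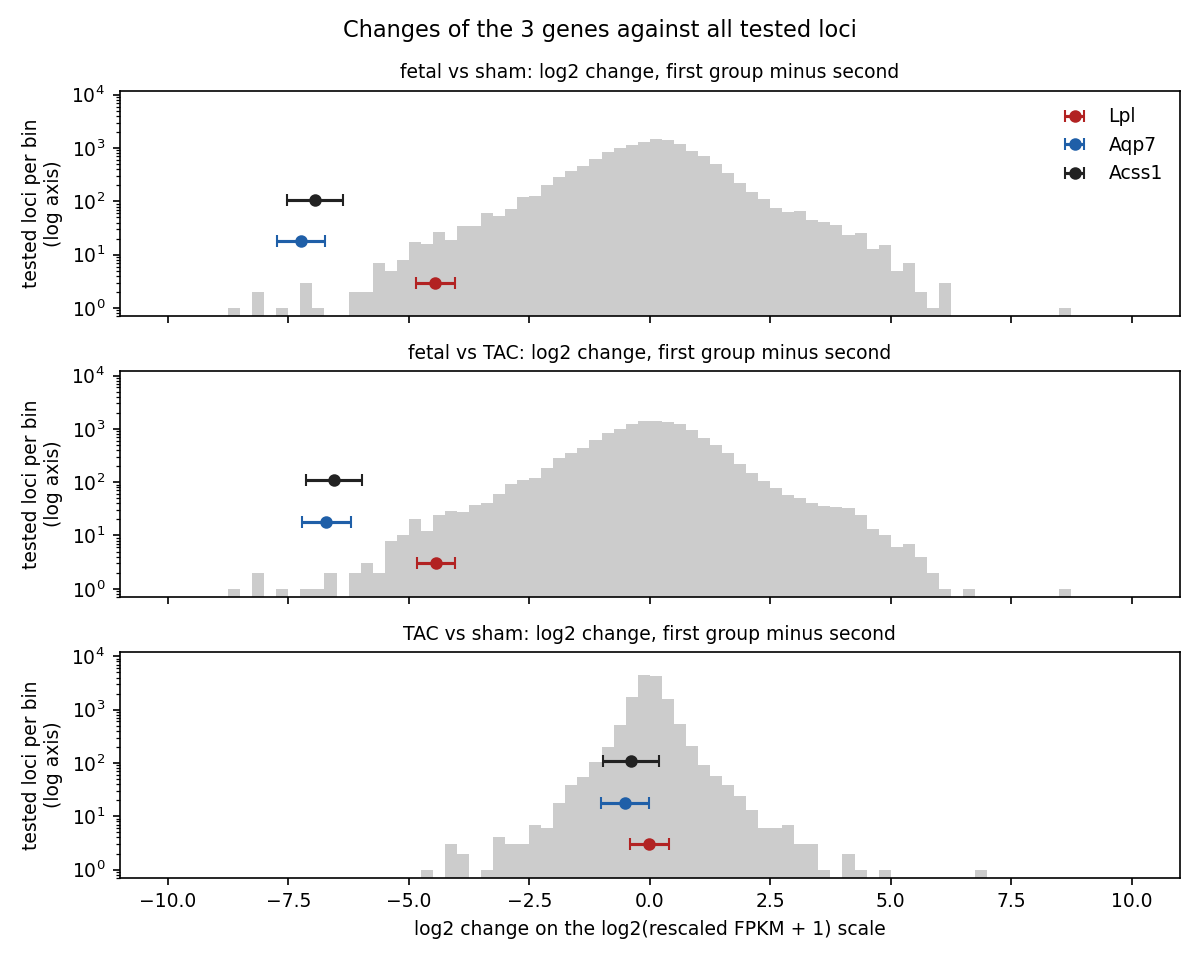
Log2 change of Lpl, Aqp7 and Acss1 with 95% confidence intervals (points and bars) over the distribution of the change at all 14211 tested loci (grey, loci per bin on a log axis), for fetal minus sham, fetal minus TAC and TAC minus sham; the height of the points carries no value. Aqp7 and Acss1 sit in the far left tail against both adult groups, at -7.23 and -6.95 against sham, and all 3 genes sit inside the bulk for TAC minus sham.

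Setting the genes against each other within a library removes most of the dependence on the scaling between libraries. The Aqp7 level was 1.37%, 1.67% and 1.53% of the Lpl level in fetal replicates 1 to 3. It was 15.4%, 15.4% and 15.4% in TAC and 18.3%, 20.6% and 28.4% in sham. The TAC libraries gave nearly the same ratio, with an SD of 0.0136 percentage points around a mean of 15.4%, whereas the sham libraries spread by 5.28 around 22.4%. The agreement in TAC is finer than counting error can resolve, since the bounds of Aqp7 in TAC replicate 1 were 154.6 to 194.2 around 174.4. No conclusion is drawn from it. The Acss1 level was 2.09%, 4.3% and 3.51% of the Lpl level in fetal ventricle, 20.2%, 20.7% and 22.8% in TAC and 27.2%, 19.8% and 38.9% in sham. Both ratios were lower in each fetal library than in any adult one.

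On the log2 scale with 1 added to each level, the ratio of Aqp7 to Lpl was lower by 2.52 in the 3 fetal than in the 6 adult libraries (exact two-sided permutation test, p = 0.0238, adjusted over 3 ratios 0.0357). Aqp7 passed the filter through its adult libraries alone, so the p-values of its ratios are no evidence of the direction. The ratio tests reuse the levels compared above and are not separate evidence. The ratio of Acss1 to Lpl was lower by 2.31 (exact two-sided permutation test, p = 0.0238, adjusted 0.0357). A p of 0.0238 is the smallest that 3 libraries against 6 allow; without any 1 of the fetal libraries it was 0.0714 for both, the smallest for 2 against 6. Aqp7 and Acss1 kept a ratio closer to each other: Aqp7 stood at 65.4%, 38.9% and 43.7% of Acss1 in fetal ventricle, at 76.1%, 74.6% and 67.5% in TAC and at 67.3%, 104% and 73% in sham. The fetal and adult libraries differed in this ratio by -0.21 on the log2 scale, which did not pass the test (exact two-sided permutation test, p = 0.286). The percentages themselves did not overlap between fetal and adult libraries, and the test rests on the 1 added to each level: the difference was -0.59 with 0.1 added (exact permutation p = 0.0714) and -0.66 on values as deposited, where the added 1 is negligible (exact permutation p = 0.0238). Between TAC and sham the ratio of Aqp7 to Lpl did not overlap, but 3 libraries against 3 cannot give a p below 0.1, which is what the exact permutation test gave (p = 0.1). This comparison was made after the values had been seen.

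**Figure D3:**
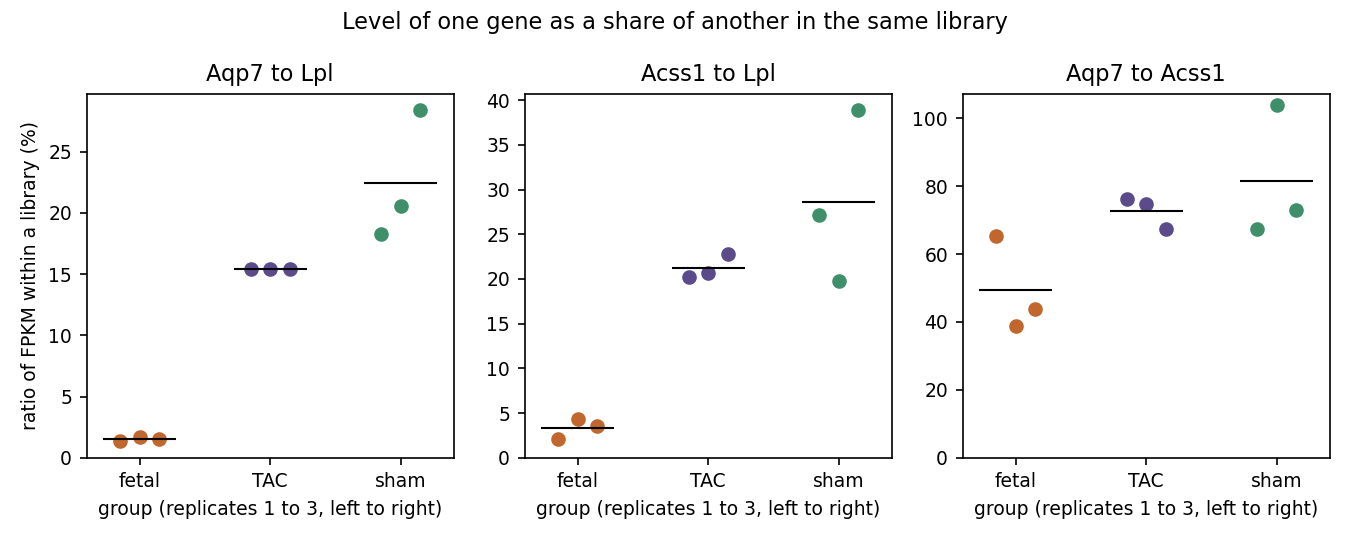
Level of Aqp7 as a percentage of Lpl, of Acss1 as a percentage of Lpl and of Aqp7 as a percentage of Acss1, each within the same library, for fetal, TAC and sham (points are libraries, lines group means). Against Lpl, both genes stand at 4.3% or less in fetal ventricle and at 15.4% or more in the adult libraries, with the 3 TAC libraries at 15.4% for Aqp7.

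The transcripts that make up these levels differed in kind between the genes. Lpl was a single transcript in every library. The assembly had lengthened it beyond the higher-coordinate end of the reference, by 96 to 177 nt in fetal ventricle, by 379 to 581 nt in TAC, and in sham by 550 and 846 nt in replicates 1 and 3 and not at all in replicate 2. Strand is not given in the files, so this end is not named as the start or the end of the gene. Aqp7 was assembled as the reference transcript alone in the 3 fetal libraries. In 6 of 6 adult libraries a second, longer transcript had been assembled, reaching 872 to 873 nt in TAC and 864 to 873 nt in sham past the lower-coordinate end of the reference. Its length was 2131 to 2140 nt, and its far end differed by at most 9 nt between libraries.

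This longer Aqp7 transcript held 51.3%, 23.4% and 22.4% of the gene's level in TAC replicates 1 to 3, and 32.1%, 18.3% and 23.4% in sham. In sham replicate 2 a further assembled transcript of 902 nt within the reference held another 22.9%. The shares overlapped between TAC and sham. Each fetal library held 14 to 20 Aqp7 fragments in all; whether a longer transcript of such a share would have been assembled at that depth was not tested. Acss1 was the reference transcript alone in fetal replicate 1 and TAC replicate 1. In the other 7 libraries transcripts assembled beside it held 44.6% to 51.8% of the level in fetal ventricle, 15.9% to 46.1% in TAC and 12% to 26.6% in sham. The fetal pieces ended at 141277708 in replicate 2 and at 141260754 and 141262337 in replicate 3, short of the reference end at 141308871. Those of the adult libraries reached past that end. Counting the reference transcripts alone, the log2 changes between fetal and sham ventricle were -6.66 for Aqp7 (limma adjusted p = 3.55e-05) and -7.02 for Acss1 (limma adjusted p = 1.42e-05).

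**Figure D4:**
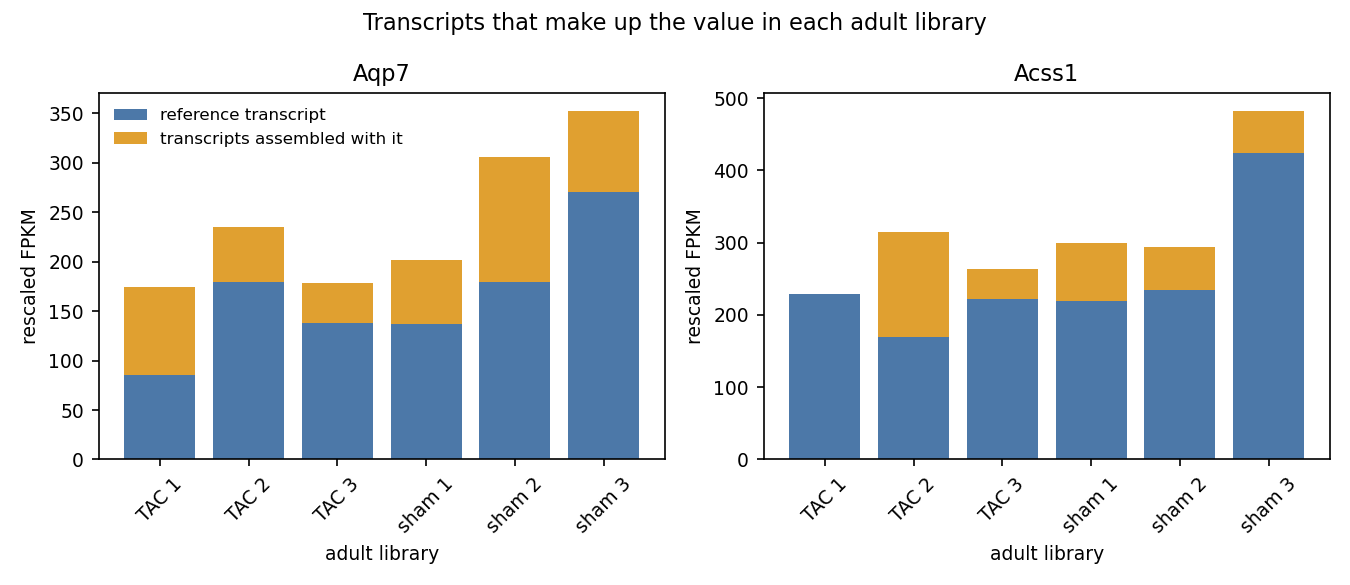
Rescaled FPKM of the reference transcript (blue) and of the transcripts assembled with it (orange) in each adult library, for Aqp7 and Acss1; the stacked bar is the level of the gene. The assembled part of Aqp7 is present in all 6 adult libraries and ranges from 22.4% to 51.3% in TAC, and Acss1 in TAC replicate 1 has none.

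The genes whose levels moved most like each of the 3 were found by the root mean square difference in log2(rescaled FPKM + 1) over the 9 libraries, after each gene was centred on its own mean, among 8729 tested loci with a symbol. The nearest to Aqp7 was Acss1 (0.24), and the nearest to Acss1 was Aqp7. Also among the 5 nearest were Myom2, which encodes a protein of the M band (0.61), the guanine deaminase gene Gda (0.63) and the aldo-keto reductase gene Akr1cl1 (0.65) for Aqp7, and Gda (0.52), the apolipoprotein L gene Apol11a (0.60) and the class II histocompatibility gene RT1-Da (0.60) for Acss1. Gda, Akr1cl1, Apol11a and RT1-Da averaged 0.1585, 0.174, 0.03927 and 0.5335 in fetal ventricle. They so passed the filter through the adult libraries, where they had to be higher. The likeness is a description that rests mainly on the step between fetal and adult libraries.

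Lpl had other neighbours. The nearest was Thrb, the gene of thyroid hormone receptor beta (0.15), followed by Asb10 (0.18), which encodes an ankyrin repeat protein, and by Fmo2, Hsd11b1 and Tnfsf10 (0.24 each). Fmo2 encodes a flavin-containing monooxygenase, Hsd11b1 the enzyme that regenerates active glucocorticoid, and Tnfsf10 the death ligand TRAIL. In fetal ventricle Thrb, Asb10, Fmo2 and Tnfsf10 averaged 0.5859, 0.5112, 0.06608 and 0.242, against 56.94 for Lpl. They so passed the filter through the adult libraries, and the scale with 1 added understates their change. Their likeness to Lpl holds on that scale only. Aqp7 stood 1.22 and Acss1 1.13 from Lpl, at places 462 and 375 of its order. The order depends on the constant added before taking logs: with 0.1 in place of 1, none of the 5 genes named for Lpl remained (0 of 5), against 3 of 5 for Aqp7 and 2 of 5 for Acss1.

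Other genes of the same supply routes were followed in lists fixed by name. Over 7 overlapping lists, 57 genes were measured of 144 listed. Many well-known ones, Cd36, Fabp3, Acsl1, Lipe and Ppara among them, are not analysed here because the files pair no symbol with them. Of the measured genes, Angptl4, Slc16a7 and Thrb, like Aqp7, were below 1 in every fetal library. They so passed the filter through the adult libraries, where they had to be higher. Apart from the 3 genes themselves, 30 of 54 measured genes were lower and 7 higher in fetal than in sham ventricle, with a median log2 change of -0.93, against 23.0% lower and 22.4% higher among all tested loci and a median of 0.05. These shares of all loci also stand beside the fetal against sham counts of each list below. Between TAC and sham none of the 54 was called by limma (0 of 54), and 4 had an unadjusted p below 0.05. Against TAC, 29 of the 54 were lower and 6 higher in fetal ventricle; here 22.7% of all loci were lower and 22.7% higher, which became 2254 lower and 3590 higher loci when libraries were scaled to equal totals.

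In the delivery of fatty acids from lipoproteins, which holds Lpl, 11 of 30 genes were measured and 5 were lower and 2 higher in fetal than in sham ventricle (median -0.50). Gpihbp1, the capillary protein that carries lipoprotein lipase to its place of action, averaged 4.79 ± 1.276 in fetal and 26.42 ± 13.81 in sham ventricle, a log2 change of -2.14 (limma adjusted p = 0.00154). Pltp, the phospholipid transfer protein of plasma, averaged 2.561 ± 1.122 in fetal and 60.56 ± 12.17 in sham ventricle (-4.14, limma adjusted p = 7.23e-06). Fabp4, the fatty acid binding protein of fat cells and capillary endothelium, averaged 179.1 ± 64.33 in fetal and 763.1 ± 155.7 in sham ventricle (-2.14, limma adjusted p = 0.000994). Lmf1, the factor that lets the lipase fold, averaged 16.21 ± 1.339 and 17.23 ± 1.714 in fetal and sham ventricle and was not called (limma adjusted p = 0.653), and the lipase inhibitor gene Angptl4 stood at 0.6237 ± 0.3261 and 1.321 ± 0.5757 (0.176).

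The 2 long-chain acyl-CoA synthetase genes called in this list went the other way. Acsl3 averaged 40.5 ± 7.453 in fetal and 10.76 ± 4.734 in sham ventricle (1.88, limma adjusted p = 0.00289), and Acsl4 averaged 17.54 ± 3.741 in fetal and 4.679 ± 1.838 in sham ventricle (1.74, limma adjusted p = 0.00246). Acsl4 was no longer called when only reference transcripts were counted (limma adjusted p = 0.966). After TAC the list had no call against sham (0 of 11 by limma), with 1 gene, Lmf1, at an unadjusted p below 0.05.

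Around Aqp7, 14 of 36 genes of glycerol and triglyceride handling were measured; 9 were lower and 2 higher in fetal than in sham ventricle (median -1.0). Gpd1, the cytosolic enzyme that makes glycerol 3-phosphate from a glycolytic intermediate, averaged 6.445 ± 0.9645 in fetal and 129.9 ± 7.1 in sham ventricle (-4.14, limma adjusted p = 6.88e-07). Pnpla2, the lipase that opens stored triglyceride, averaged 25.19 ± 4.388 in fetal and 269.6 ± 56.71 in sham ventricle (-3.36, limma adjusted p = 5.16e-06). Dgat1, which makes the last step of triglyceride synthesis, averaged 16.2 ± 0.9856 in fetal and 68.43 ± 4.099 in sham ventricle (-2.01, limma adjusted p = 1.07e-05). Dgat2, the other enzyme of that step, averaged 16.36 ± 2.345 in fetal and 15.58 ± 3.62 in sham ventricle and was not called (limma adjusted p = 0.841).

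The 2 genes of this list that were higher in fetal ventricle belong to phosphatidate metabolism. Agpat4, an acyltransferase gene, had a log2 change of 1.10 (limma adjusted p = 0.00115), and Lpin2, a phosphatidate phosphatase gene, one of 0.89 (limma adjusted p = 0.0354). The call for Lpin2 was lost without fetal replicate 1 or 2 or without sham replicate 1, 2 or 3, with limma adjusted p between 0.0654 and 0.105, and with no filter on low values (0.0577) or with reference transcripts only (0.976). With replicates 2 and 3 alone 1 gene of the list was higher. No gene of the list was called between TAC and sham (0 of 14 by limma), with 2 genes, Aqp7 and Agpat2, at an unadjusted p below 0.05.

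Of the wider aquaporin family of 13 names, only Aqp7 and Aqp1 passed the filter; 9 other names lay below it and 2 had no symbol in the files. Aqp1, the water channel of red cells and endothelium, averaged 142.1 ± 13.23 in fetal, 355.8 ± 46.82 in TAC and 302.9 ± 28.19 in sham ventricle, a log2 change between fetal and sham of -1.09 (limma adjusted p = 0.000516). In the adult libraries Aqp7 and Aqp1 thus reached levels of the same order, whereas in fetal ventricle Aqp1 stood at 142.1 and Aqp7 at 0.8697.

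Around Acss1, 14 of 20 genes of acetate, acetyl-CoA and ketone handling were measured; 9 were lower and 2 higher in fetal than in sham ventricle (median -1.60). Acss2, the acetyl-CoA synthetase of cytosol and nucleus, averaged 16.68 ± 3.888 in fetal and 76.93 ± 16.03 in sham ventricle (-2.14, limma adjusted p = 0.000104; not called with reference transcripts only, 0.492). Acss3, a further mitochondrial member of that family, averaged 5.023 ± 0.7584 in fetal and 4.273 ± 1.912 in sham ventricle and was not called (limma adjusted p = 0.527). Sirt3, the deacetylase that activates the Acss1 protein, averaged 13.31 ± 1.465 in fetal and 62.88 ± 12.41 in sham ventricle (-2.14, limma adjusted p = 2.62e-05). Mlycd, which breaks down malonyl-CoA, averaged 31.31 ± 5.178 in fetal and 216.7 ± 13.76 in sham ventricle (-2.76, limma adjusted p = 3.8e-06).

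Slc16a1, a transporter of monocarboxylates such as lactate and acetate, stood at 212.3 ± 25.75 in fetal and 234.5 ± 39.04 in sham ventricle and was not called (limma adjusted p = 0.506). The 2 genes of the list that were higher in fetal ventricle act in the cytosol. Acat2, a thiolase gene, averaged 26.95 ± 6.487 in fetal and 4.884 ± 2.366 in sham ventricle (2.30, limma adjusted p = 0.000711). Acly, which makes cytosolic acetyl-CoA from citrate, averaged 43.6 ± 2.155 in fetal and 18.24 ± 2.907 in sham ventricle (1.22, limma adjusted p = 0.000249; not called with reference transcripts only, 0.245). TAC against sham gave no call in the list (0 of 14 by limma), with 1 gene, Mlycd, at an unadjusted p below 0.05.

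**Figure D5:**
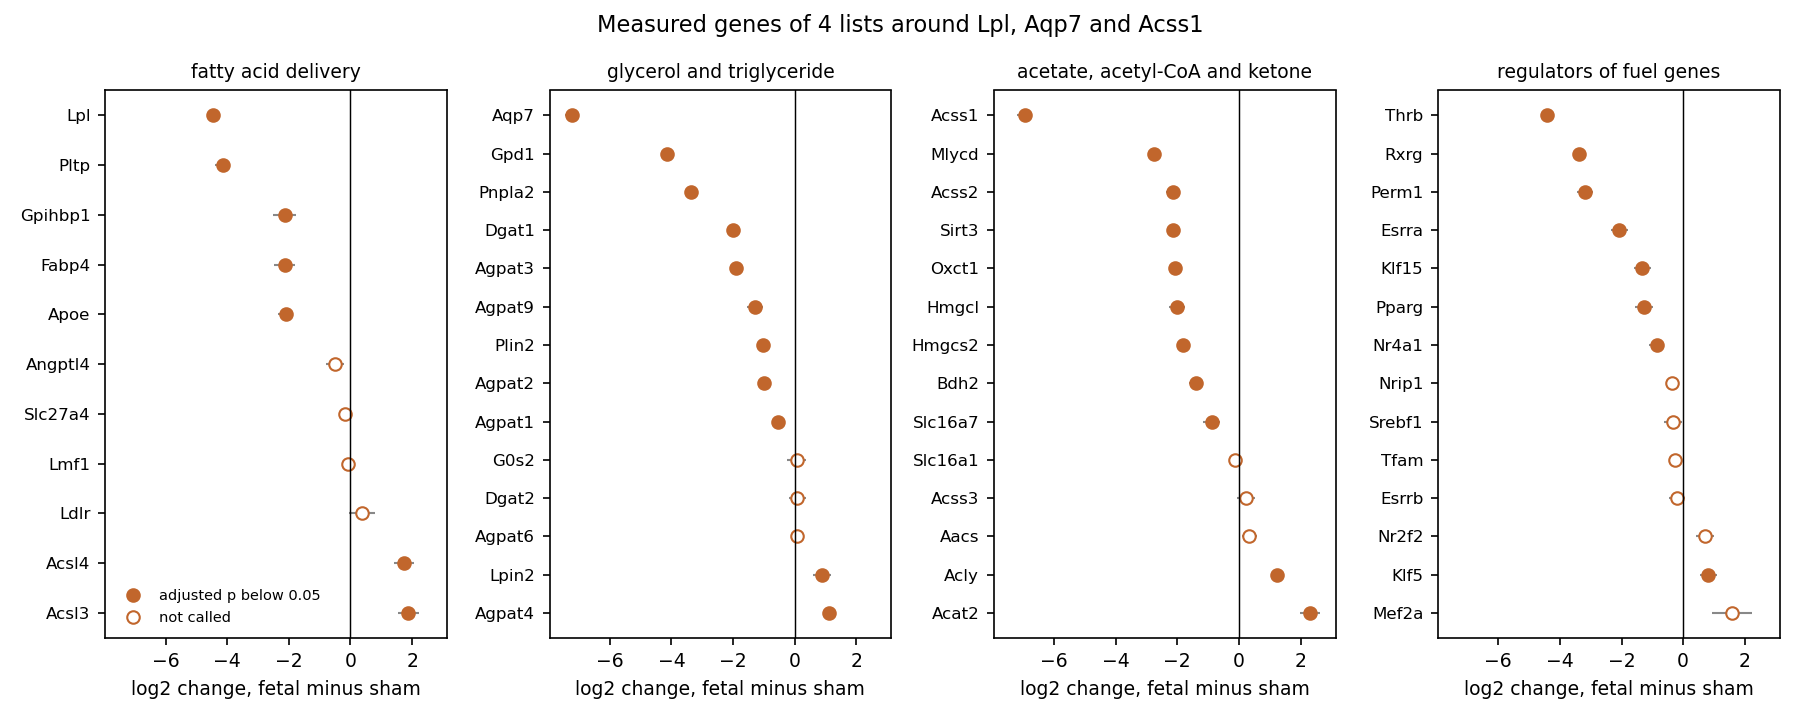
Log2 change (fetal minus sham, points, with its SE as bars) of every measured gene in 4 of the lists; filled points passed an adjusted p of 0.05 and open points did not. Lpl, Aqp7 and Acss1 stand at the top of their lists with the lowest values, and Acsl3, Acsl4, Agpat4, Lpin2, Acat2, Acly and Klf5 lie on the higher side.

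Among all tested loci 23.0% were lower and 22.4% higher in fetal than in sham ventricle. The acyl-CoA synthetase family, relatives of the Acss1 protein, had 8 measured of 24 names, 3 lower and 2 higher (median 0.04). It holds Acss1, Acss2, Acsl3 and Acsl4 as well as Acsf2, another mitochondrial member, which averaged 41.24 ± 1.005 in fetal and 138.7 ± 24.25 in sham ventricle (-1.71, limma adjusted p = 7.26e-05). The neutral lipase list groups genes by reaction. It had 3 measured of 14 names, and these 3 were lower: Lpl, Pnpla2 and Pnpla3. Pnpla3, a relative of Pnpla2, averaged 1.013 ± 0.7954 in fetal and 10.46 ± 3.215 in sham ventricle (-2.54, limma adjusted p = 0.00282). It was not called with reference transcripts only (limma adjusted p = 0.44). Pnpla2 and Pnpla3 are not close relatives of Lpl. Lipc, Lipg, Pnlip, Pnliprp1, Pnliprp2 and Lipi lay below the filter, so no close relative of Lpl was tested.

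Of 27 regulators known to act on fuel genes 14 were measured, and 7 were lower and 1 higher in fetal than in sham ventricle (median -0.61). Thrb, below 1 in every fetal library, averaged 0.5859 ± 0.09506 in fetal, 31.95 ± 3.814 in TAC and 33.15 ± 3.973 in sham ventricle (fetal against sham -4.42, limma adjusted p = 1.08e-06; 0.0524 with reference transcripts only). Rxrg, a retinoid X receptor gene, averaged 11.43 ± 2.94 in fetal and 127.6 ± 12.58 in sham ventricle (-3.39, limma adjusted p = 4.12e-06), but its sign turned to 1.46 with reference transcripts only. Perm1, a muscle gene that acts with the coactivator PGC-1, averaged 20.65 ± 8.538 in fetal and 183.6 ± 4.354 in sham ventricle (-3.17, limma adjusted p = 3.62e-05). Esrra, the gene of estrogen-related receptor alpha, averaged 27.36 ± 7.781 in fetal and 116.5 ± 24.84 in sham ventricle (-2.07, limma adjusted p = 0.000394).

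The 1 regulator higher in fetal ventricle was Klf5, a Krüppel-like factor gene (0.82, limma adjusted p = 0.0346). Its call was lost with the replicate number as a block (0.0562), when only replicates 2 and 3 were fitted (0.177), and without sham replicate 1 or 2 or fetal replicate 1 or 2 (0.081 to 0.107). Pparg, the receptor best known from fat cells, averaged 1.353 ± 0.07294 in fetal and 4.755 ± 1.503 in sham ventricle (-1.26, limma adjusted p = 0.00754); it is named for its role and not by the rule used for the others. No regulator was called between TAC and sham (0 of 14 by limma), and none had an unadjusted p below 0.05 (0 of 14).

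Because Lpl, Aqp7 and Fabp4 are also expressed in cells other than heart muscle, marker genes of those cells were followed in the same libraries. Of 12 adipocyte markers 9 had a locus, and their summed level was 5.468 to 10.19 in fetal, 34.99 to 60.44 in TAC and 22.79 to 55.32 in sham ventricle. In each adult library this sum was below the Aqp7 level. It lacks Adipoq, Lipe and Cidea, which had no symbol, and it has no known scale against Aqp7. Nothing on the source of Aqp7 follows from it. Plin1, which coats the fat droplet of adipocytes, was listed at 0 in the 3 fetal libraries and did not exceed 1.342 in an adult one, and Cidec, another droplet protein, did not exceed 1.266. Lep, Retn and Ucp1 lay below the filter too, and 2 of 4 tested markers were lower in fetal than in sham ventricle, Cfd (-3.28, limma adjusted p = 5.71e-06) and Adig (-2.01, limma adjusted p = 0.00341), against 23.0% of all loci. Adig was at most 0.4213 in fetal ventricle and passed the filter through the adult libraries alone. The other markers tested were not called: Thrsp (-0.38, also through the adult libraries) and Car3 (0.63), whose range of 0.7245 to 26.89 within sham carries most of the range of the sum there. The part of fat cells in the adult levels of the 3 genes was not tested.

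Markers of other cell types also differed between fetal and adult libraries. Among all tested loci 23.0% were lower and 22.4% higher in fetal than in sham ventricle. The 7 measured of 14 endothelial markers summed to 336.7 to 446.5 in fetal, 1045 to 1567 in TAC and 867.5 to 1161 in sham ventricle, and 5 were lower in fetal than in sham, with a list median of -0.53. Fabp4 is the largest part of the sum, at 105.1 to 221.8 in fetal and 593.6 to 899.6 in sham. Gpihbp1 and Vwf were lower as well (Vwf, von Willebrand factor, -1.90, limma adjusted p = 0.00341, 1.44 with reference transcripts only), whereas Pecam1 (-0.09) and Emcn (-0.30) were not called. Macrophage markers summed to 69.57 to 79.45 in fetal, 359 to 552.4 in TAC and 314.7 to 563.4 in sham, and 10 of 10 measured were lower in fetal than in sham, led by Lyz2 (-3.01), C1qa (-2.69) and Cd14 (-2.29); Cd14 and Itgam passed the filter through the adult libraries alone. Fibroblast markers summed to 221.5 to 300.1 in fetal, 1634 to 1756 in TAC and 1185 to 1738 in sham, and 7 of 8 were lower, led by Mfap5 (-4.98), Dpt (-3.57) and Dcn (-3.00, but 1.28 with reference transcripts only).

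Erythroid markers summed to 17391 to 27647 in fetal, 5031 to 10231 in TAC and 5092 to 12715 in sham. Of these 4 of 8 tested were higher in fetal than in sham, against 22.4% of all loci, led by Hbe1 (6.03), Ahsp (4.94) and Epb42 (1.70). Epb42 passed the filter through the fetal libraries alone. Of 20 heart muscle markers only 4 had a symbol in the files, so the identity of the tissue rests on few genes. They summed to 15049 to 139238 in fetal, 47697 to 54096 in TAC and 46215 to 58127 in sham. The fetal sum is nearly all Actc1, the cardiac actin gene, which ran from 14236 to 137255 in the fetal libraries, with the top value in fetal replicate 2, and was not called. By contrast the muscle genes Myom2 (-8.24, but 1.61 with reference transcripts only), Mb (-4.32) and Cox8b (-3.98) were lower in fetal than in sham ventricle; Myom2 stood at only 2.365 to 5.452 in the fetal libraries. No marker list had a call between TAC and sham (0 by limma), and at most 1 gene of a list had an unadjusted p below 0.05. The part of these differences in cell content in the levels of Lpl, Aqp7 and Acss1 was not tested.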

How the data were processed

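Whole-ventricle RNA was sequenced in 9 libraries, made with the Illumina TruSeq kit, which does not mark strand. Per the submitters' processing notes, TopHat 1.3.1, Cufflinks 1.0.3, Cuffdiff (no version given) and the build rn4 were used. The authors deposited FPKM with confidence bounds for the genes and isoforms of each library, assembled separately and multiplied by a constant that differs between libraries: medians above 0 run from 2.73e+06 to 4.6e+07. File starts count from 0 and are printed from 1.

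Libraries were joined through 39492 reference transcripts, grouped into 1 locus if 5 or more libraries put them in the same gene. Of the 29330 loci, 25075 are at least 200 nt long, and 16911 of these have a symbol in the files. A locus value is the sum of its reference transcripts and those assembled with them, a sum that equals the deposited gene value. Values were rescaled by the median of ratios over 13179 loci above 0 throughout, to a mean total of 1e6. Loci with at least 1 in at least 3 libraries (14211) were fitted on log2(value + 1) with limma 3.58.1 in R 4.3.3 (eBayes with trend, all 9 libraries, group means, 6 residual degrees of freedom), calling loci at a Benjamini-Hochberg adjusted p under 0.05. Ratios were tested by exact permutation with scipy 1.17.1. Fragment numbers were computed from the bounds, taken as 2 SD of counting error, and are estimates; they cover counting error only. In 5 simulated data sets the fit found 34% of log2 changes of 1 and 86% of those of 4 added to the fetal libraries. Only a small share of loci was changed there, and the values of each library were drawn independently. In the data 45.4% of the tested loci were called between fetal and sham, so these rates do not carry over to that comparison.

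Replicate numbers come from the sample titles. Deviations from the group means correlated between same-numbered libraries at 0.15 to 0.51 in every pair of groups, and by the rule of 0.1 the numbers were taken to pair the libraries. Different numbers among replicates 2 and 3 correlated too (0.24 for fetal 2 with TAC 3, 0.28 for TAC 3 with sham 2), so the pattern mainly sets replicate 1 apart. The main fit and the permutation tests do not use the numbers. Fits with the number as a block were also run. Between TAC and sham they gave a limma adjusted p of 0.999 for Lpl, 0.905 for Aqp7 and 0.905 for Acss1.

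The 3 genes and all lists were chosen with earlier results of these data known. Named from each list are those called between TAC and sham and, between fetal and sham, up to 4 in each direction by size of change (3 for marker lists), and for likeness the 5 nearest; others are named for their role. 1 gene that the likeness rule names is not reported here. Alternatives tried were other scalings, pseudocounts of 0.1 and 5, other filters, the block, a batch term, subsets of libraries, no variance trend, and reference transcripts only.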

Additional observations from a re-analysis of the deposited data

How the results depend on the processing

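Lpl, Aqp7 and Acss1 kept their direction and their call against both adult groups under all 22 alternatives, with 1 exception: on values as deposited, Lpl changed by -0.33 between fetal and TAC (limma adjusted p = 0.471). The deposited values carry a constant per library, and the median change of all loci then was 2.82 for fetal against sham, 4.33 for fetal against TAC and -1.47 for TAC against sham, in place of 0.05, 0.04 and -0.01. Over the alternatives the change between fetal and sham ran from -4.55 to -1.79 for Lpl, -8.18 to -5.60 for Aqp7 and -7.52 to -4.92 for Acss1, the smallest values for Lpl and Acss1 being those as deposited. Between TAC and sham none of the 3 was called under any alternative (limma adjusted p 0.0541 or more). There Lpl turned to 0.07 without TAC replicate 1, 0.05 without TAC replicate 3 and 0.11 without sham replicate 2, in a leave-one-out range of -0.15 to 0.11. With the replicate block the adjusted p between fetal and sham was 9.46e-06 for Lpl, 3.09e-06 for Aqp7 and 6.18e-06 for Acss1, and among the named genes the block changed no call other than that of Klf5 given above. Called loci numbered 11592, 57 and 13653 on values as deposited and 2014, 36 and 2110 with reference transcripts only (fetal against sham, TAC against sham, fetal against TAC), beside 6450, 2 and 6462. Replicates 2 and 3 alone gave 13 for TAC against sham, and leaving out 1 library 2 to 5. The cause was not tested.

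For the ratios, replicates 2 and 3 alone gave -2.57 for Aqp7 to Lpl and -2.16 for Acss1 to Lpl (exact permutation p = 0.133), a design that cannot pass the threshold. With pseudocounts of 0.1 and 5 and on values as deposited, Aqp7 to Lpl was -3.45, -0.99 and -3.60 and Acss1 to Lpl -2.86, -1.14 and -2.94 (exact permutation p = 0.0238 each). The p-values of the Aqp7 ratios are no evidence of the direction here either. Leaving out 1 library gave -2.57 to -2.40 and -2.45 to -2.14, with p above the threshold when a fetal library was left out. Aqp7 to Acss1 was -0.66 on values as deposited (exact permutation p = 0.0238), 0.16 with a pseudocount of 5 and 0.41 with reference transcripts only. Of the other named genes, these turned positive between fetal and sham on values as deposited: Gpihbp1 0.33, Fabp4 0.54, Dgat1 0.61, Acss2 0.47, Sirt3 0.46, Aqp1 1.59, Acsf2 0.95, Esrra 0.58 and Vwf 0.67. With reference transcripts only, Rxrg turned to 1.46, Vwf to 1.44, Dcn to 1.28 and Myom2 to 1.61. Calls were lost without a change of sign on values as deposited for Pnpla2, Mlycd, Pnpla3, Rxrg, Perm1, Lyz2, C1qa, Cd14, Dpt, Dcn, Mb, Cox8b and Tnfsf10, and with reference transcripts only for Acsl4, Agpat4, Lpin2, Acly, Acss2, Pnpla3, Klf5, Thrb, Cd14 and Apol11a. Relative to the median of all loci, 50 of 50 genes kept their sign between fetal and sham. These are the 3 genes and those named by the rule. Genes named for their role, Pparg among them, are not in this count. The cause was not tested.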

Other observations

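Short features assembled apart from the 3 genes lay within 5000 nt of Lpl and Acss1. In TAC replicate 1 a separate 77-nt piece inside Lpl was listed at 1682 rescaled FPKM on 11 fragments, with bounds of 667.6 to 2696; it is not part of the Lpl values above. Beyond the lower-coordinate end of Acss1, pieces 2703 to 2975 nt away were listed at 19.54 and 24.64 in fetal replicates 2 and 3, on 66 and 135 fragments, where Acss1 itself stood at 2.465 and 2.094. Near the same end, pieces were listed at 6.844 in TAC replicate 1, at 10.74 and 38.9 in TAC replicate 3, at 18.36 in sham replicate 1, at 24.72 in sham replicate 2 and at 22.78 in sham replicate 3. A further piece of 116 nt in sham replicate 3, 2362 nt away, was listed at 277.1 on 11 fragments, with bounds of 110 to 444.2, against an Acss1 level of 482.3 in that library. These pieces are not annotated in the files, and whether they belong to Acss1 was not tested.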
